A study of Mus musculus with 11 samples.

Results

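Genes of fat cell identity and lipid storage, 10 in all, are described here in marrow stromal cells of mice given doxorubicin or saline: the transcription factors Pparg and Cebpa, the adipokine Adipoq, the fatty acid handling genes Lpl, Fabp4 and Cd36, and the lipid droplet genes Plin1, Plin2, Plin4 and Cidec. The set was chosen by gene symbol, and all 10 were among the 24718 genes of the count table. Of the 10, 9 passed the filter on low counts and were tested with 17838 genes in all. Cidec did not pass and is given by its counts only.

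Cells were sorted through tdTomato from the bone marrow of female mice, 11 libraries in all, that carried Lepr-Cre and 1 copy of a LSL-tdTomato reporter, so that cells in which the leptin receptor gene is or was active are red. Every group shared that genotype, and Cre marks a lineage rather than 1 cell type. The 3 groups were DOX4X (4 libraries, 4 intravenous injections of doxorubicin at 5 mg/kg with a week between injections, young adults of 8 to 10 weeks), DOX1X (3 libraries, 1 intravenous injection at 10 mg/kg, young adults) and PBS (4 libraries, 4 intravenous injections of buffered saline). Marrow was taken 8 weeks after treatment and digested with enzymes before the sort. DOX1X and PBS mice therefore differed in the number of injections as well as in the drug. One PBS library carries a title that names doxorubicin and a treatment label that names PBS. It is called PBS 4 here, by its treatment label.

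Adipogenesis is driven by PPARG, a nuclear receptor that dimerises with RXR, and by C/EBPA, which switch each other on and then activate genes of fat storage. Stored triglyceride sits in a droplet coated by perilipins, and is fed by fatty acids that lipoprotein lipase frees from lipoproteins and CD36 and FABP4 carry into and through the cell. In marrow, leptin receptor stromal cells are known to transcribe several adipocyte genes, adiponectin above all, without holding a large droplet, and they give rise to marrow adipocytes. FABP4 and CD36 are also made by endothelial cells of small vessels, and CD36 by macrophages and platelets.

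A DOX4X library held between 31129352 and 36888310 counted reads, a DOX1X library between 33496356 and 42002065, and a PBS library between 29540422 and 42784036. The stromal label was checked with 11 identity genes such as Lepr, Cxcl12 and Kitl. Their summed level lay between 60061 and 71014 CPM (read counts scaled to a common library size after TMM normalization) in DOX4X, between 59807 and 75657 CPM in DOX1X and between 65875 and 76050 CPM in PBS. Most of that sum was Cxcl12, which alone had 46059 to 57087 CPM in the DOX4X libraries. Markers of other cells were far lower but present: the 22 endothelial markers summed to between 783 and 1467 CPM in DOX4X, between 296 and 563 CPM in DOX1X and between 218 and 933 CPM in PBS, with none at 0 in any library. Column names carry a code of the form of a flow cell. All PBS libraries and DOX1X 1 and 2 had 1 code, and all DOX4X libraries and DOX1X 3 had the other, so treatment and code cannot be told apart in a plain comparison of DOX4X with PBS.

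The genes differed widely in level per kilobase of coding transcript. Adipoq, the fat cell hormone adiponectin, stood at 1968 CPM per kb ± 235 (SD, n = 11 libraries), and it was the 30th most abundant gene of the table by CPM. Lpl followed at 854 CPM per kb ± 174, and Fabp4 at 237 CPM per kb ± 156. Each of these lay above the next gene in all 11 libraries. Pparg stood at 60.7 CPM per kb ± 12.7 and was above Plin2 in all 11 libraries. Plin2, the perilipin of small droplets in most cell types, had 48.1 CPM per kb ± 7.39. Cebpa had 45.9 CPM per kb ± 9.32, and Plin2 exceeded it in 7 of 11 libraries, so the order of that pair was not settled. Cd36 had 9.48 CPM per kb ± 6.08. Plin1, Plin4 and Cidec were at the bottom. Plin1 had 0.283 CPM per kb ± 0.154 and Plin4 0.267 CPM per kb ± 0.156, an unsettled pair with Plin1 above in 7 of 11 libraries, and Cidec had 0.0832 CPM per kb ± 0.0432. Adiponectin and the adipocyte regulators were abundant, and the droplet genes Plin1, Plin4 and Cidec gave very few reads. In bulk samples a smaller share of cells and less RNA per cell cannot be told apart.

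The spread between libraries also set the genes apart. Over all 11 libraries the coefficient of variation of the CPM level was 11.9% for Adipoq, 15.3% for Plin2, 20.3% for Cebpa, 20.4% for Lpl and 21% for Pparg. It was 65.9% for Fabp4, 64.1% for Cd36, 58.5% for Plin4 and 54.6% for Plin1. The highest library exceeded the lowest 9.31-fold for Cd36 and 6.34-fold for Fabp4, against 1.48-fold for Adipoq. Of the 10 genes, 9 had their lowest level in PBS 3 or PBS 4, and 7 their highest in DOX4X 2 or DOX4X 3. The same was not counted over all genes, so it cannot be read as a trait of this set.

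**Figure D1:**
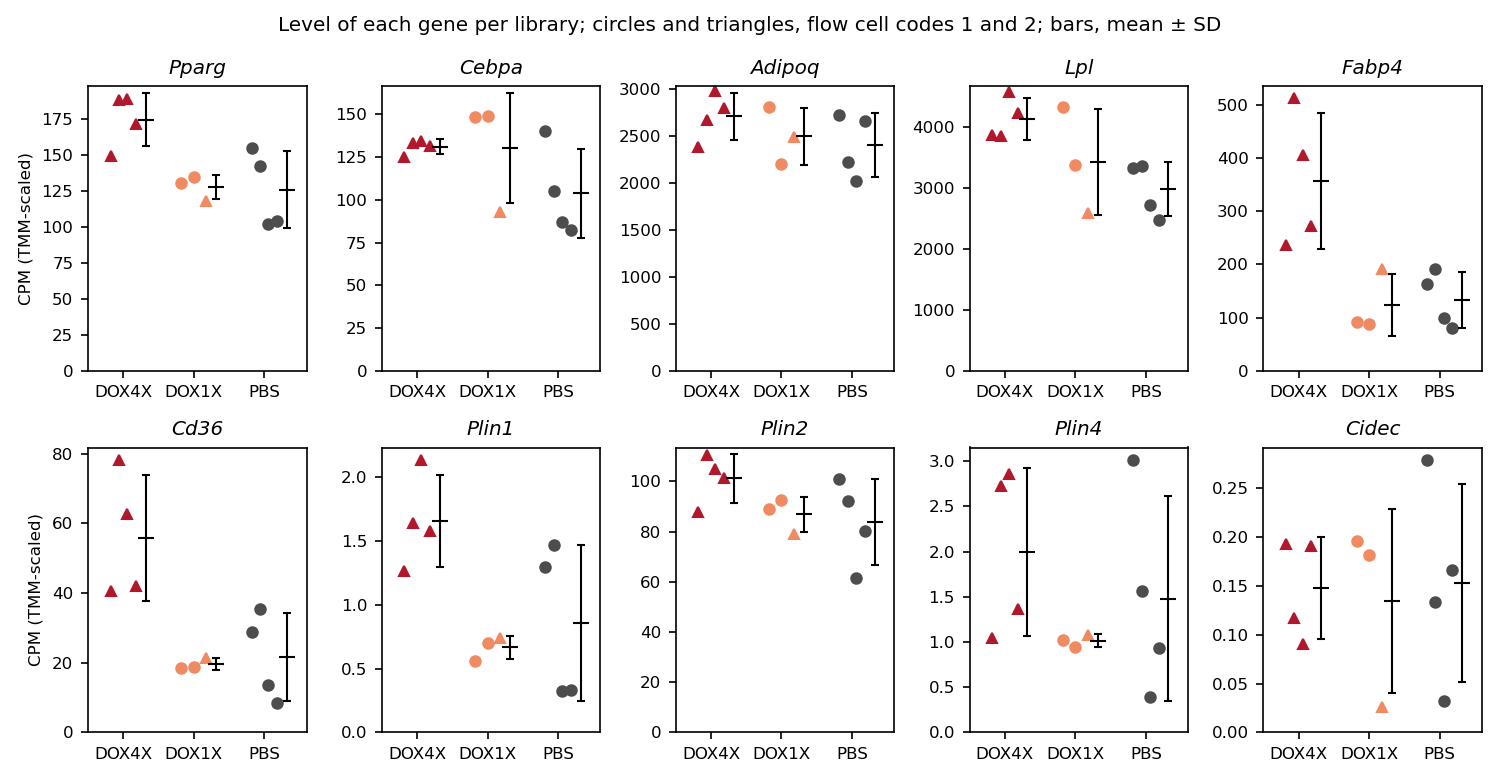
Level of each of the 10 genes (y axis, CPM scaled by TMM, from 0) in every library of DOX4X, DOX1X and PBS, with circles and triangles for the 2 flow cell codes and a bar for the mean ± SD. Fabp4 and Cd36 lay higher in all 4 DOX4X libraries than in any other library, while Adipoq overlapped between all groups.

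Pparg, the master regulator of adipogenesis, had 149.7, 189, 189 and 172 CPM in the 4 DOX4X libraries, 131, 135 and 119 CPM in the 3 DOX1X libraries, and 155, 143, 102 and 105 CPM in the 4 PBS libraries. All DOX4X libraries lay above all DOX1X libraries, whereas DOX4X 1 lay below PBS 1. The mean was 175 CPM ± 18.6 (SD, n = 4) in DOX4X, 128 CPM ± 8.48 (n = 3) in DOX1X and 126 CPM ± 26.7 (n = 4) in PBS. The log2 fold change was 0.47 (SE 0.14) for DOX4X against PBS, with an edgeR adjusted p of 0.185, and 0.45 (SE 0.15) for DOX4X against DOX1X, with an edgeR adjusted p of 0.886. For DOX1X against PBS it was 0.02 (SE 0.15, edgeR adjusted p = 0.98), and the sign of this small value changed when PBS 3, PBS 4 or DOX1X 2 was left out.

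Cebpa, the partner of Pparg in the adipogenic circuit, had 125, 134, 134 and 132 CPM in DOX4X, 149, 149 and 93 CPM in DOX1X, and 140.2, 105, 86.9 and 82.7 CPM in PBS. The DOX4X libraries were close together, and both other groups spanned them. DOX1X 3, which shares its flow cell code with DOX4X, was the low library of its group. Against PBS the log2 fold change was 0.34 (SE 0.18, edgeR adjusted p = 0.423) for DOX4X and 0.33 (SE 0.19, edgeR adjusted p = 0.736) for DOX1X. With the flow cell code as a term, Cebpa had a log2 fold change of 1.01 for DOX4X against PBS. The code term can be estimated only from DOX1X 3 against DOX1X 1 and 2, so the shift from 0.34 rests on DOX1X 3 alone. Exons of Pparg and of Cebpa are each overlapped by an annotated antisense gene, and reads of the 2 strands cannot be told apart here.

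Pparg is transcribed from several starts, and its counts join the isoforms. Promoters of 8 of the 10 genes were found in RefSeq (GRCm38.p6), 11 in all, each with 250 bases before and 50 bases after an annotated start. Those of Pparg (the most downstream of its 3) and Plin1 are shown because the levels of these genes tracked each other most closely among the pairs below, and that of Adipoq because it was the most abundant gene. Capitals mark matches to the C/EBP core motif TTGCNNAA on either strand.
Pparg promoter, GRCm38.p6 chr6:115421816-115422115, plus strand: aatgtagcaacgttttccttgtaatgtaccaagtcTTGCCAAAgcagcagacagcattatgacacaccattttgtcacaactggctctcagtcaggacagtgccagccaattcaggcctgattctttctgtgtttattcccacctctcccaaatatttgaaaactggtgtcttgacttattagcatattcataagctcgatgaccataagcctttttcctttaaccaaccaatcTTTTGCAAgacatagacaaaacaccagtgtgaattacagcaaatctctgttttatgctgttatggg
Plin1 promoter, GRCm38.p6 chr7:79732727-79733026, minus strand: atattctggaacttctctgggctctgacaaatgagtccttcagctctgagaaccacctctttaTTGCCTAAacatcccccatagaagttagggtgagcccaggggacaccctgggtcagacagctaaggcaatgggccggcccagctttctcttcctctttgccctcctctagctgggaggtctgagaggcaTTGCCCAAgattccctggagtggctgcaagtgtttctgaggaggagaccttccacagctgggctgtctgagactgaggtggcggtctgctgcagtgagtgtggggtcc
Adipoq promoter, GRCm38.p6 chr16:23146286-23146585, plus strand: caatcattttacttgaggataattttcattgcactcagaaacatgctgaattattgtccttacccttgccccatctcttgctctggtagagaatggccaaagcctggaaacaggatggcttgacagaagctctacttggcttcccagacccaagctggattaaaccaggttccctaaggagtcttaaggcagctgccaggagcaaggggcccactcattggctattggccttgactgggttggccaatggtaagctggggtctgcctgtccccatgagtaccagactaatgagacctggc
This motif was in 3 of the 11 promoters (Pparg, Plin1 and Cidec), against 10.8% of 32851 mouse promoters of the same length. In the Pparg promoter the 2 matches began 215 and 16 bases before the start, and in the Plin1 promoter they began 187 and 58 bases before it. The direct repeat AGGTCANAGGTCA, a textbook site of PPARG with RXR, was in none of the 11 and in 0.0396% of all promoters. The motifs do not overlap each other. These matches describe letters in a short window and are not shown to be sites.

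Adipoq, the hormone most specific to fat cells and marrow stroma, had 2383, 2674, 2984 and 2798 CPM in DOX4X, 2806, 2198 and 2492 CPM in DOX1X, and 2728, 2221, 2019 and 2662 CPM in PBS. The 3 groups overlapped throughout. The log2 fold change was 0.17 (SE 0.12, edgeR adjusted p = 0.575) for DOX4X against PBS and 0.05 (SE 0.13, edgeR adjusted p = 0.937) for DOX1X against PBS.

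Lpl, the lipase that frees fatty acids from circulating lipoproteins, had 3857, 3843, 4562 and 4227 CPM in DOX4X, 4315, 3374 and 2584 CPM in DOX1X, and 3329.9, 3359, 2722 and 2477 CPM in PBS. The lowest DOX4X library was above the highest PBS library, and DOX1X spanned nearly the whole range. The log2 fold change of DOX4X against PBS was 0.47 (SE 0.15, edgeR adjusted p = 0.224), a 1.39-fold higher level. With the flow cell code as a term it was 1.05 (SE 0.26, edgeR adjusted p = 0.26).

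Fabp4, a cytosolic carrier of fatty acids, had 237, 513, 406 and 271 CPM in DOX4X, 92.6, 87.7 and 192 CPM in DOX1X, and 163, 191, 99.1 and 80.9 CPM in PBS. All 4 DOX4X libraries lay above the other 7. The mean of 357 CPM ± 127 (SD, n = 4) in DOX4X stood against 124 CPM ± 58.6 (n = 3) in DOX1X and 133 CPM ± 52 (n = 4) in PBS. The log2 fold change was 1.42 (SE 0.35, edgeR adjusted p = 0.132) against PBS and 1.53 (SE 0.38, edgeR adjusted p = 0.886) against DOX1X. DOX1X 3, with the flow cell code of DOX4X, was the high library of its group. With the code as a term the log2 fold change of DOX4X against PBS was 0.33 (SE 0.59, edgeR adjusted p = 0.90). That shift also rests on DOX1X 3 alone.

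Cd36, a fatty acid transporter of the cell surface, had 40.6, 78.3, 62.7 and 42 CPM in DOX4X, 18.4, 18.8 and 21.5 CPM in DOX1X, and 28.9, 35.5, 13.6 and 8.41 CPM in PBS. Again the 4 DOX4X libraries lay above the other 7, and PBS 3 and 4 were the lowest. The log2 fold change was 1.37 (SE 0.38, edgeR adjusted p = 0.17) against PBS and 1.51 (SE 0.42, edgeR adjusted p = 0.886) against DOX1X. DOX1X against PBS had -0.14 (SE 0.41, edgeR adjusted p = 0.947).

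Among the droplet coat proteins, Plin2 had 87.7, 111, 105 and 102 CPM in DOX4X, 88.9, 92.4 and 79.2 CPM in DOX1X, and 101, 92, 61.4 and 80.2 CPM in PBS. The groups overlapped, and the log2 fold change of DOX4X against PBS was 0.27 (SE 0.14, edgeR adjusted p = 0.40). Plin1, the coat protein of fat cell droplets that gates lipolysis, had 1.27, 1.64, 2.14 and 1.58 CPM in DOX4X, 0.563, 0.697 and 0.736 CPM in DOX1X, and 1.29, 1.47, 0.324 and 0.334 CPM in PBS. DOX4X lay above all of DOX1X, and the PBS libraries fell into a pair at the DOX4X level and a pair below DOX1X. Between 10 and 71 reads per library stood behind these values, and the log2 fold change was 0.94 (SE 0.46, edgeR adjusted p = 0.393) against PBS and 1.31 (SE 0.51, edgeR adjusted p = 1) against DOX1X.

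Plin4, a perilipin of white fat cells, had 1.05, 2.72, 2.86 and 1.36 CPM in DOX4X, 1.03, 0.94 and 1.08 CPM in DOX1X, and 3.02, 1.57, 0.388 and 0.934 CPM in PBS. The highest and the lowest library were both PBS. The log2 fold change of DOX4X against PBS was 0.42 (SE 0.52, edgeR adjusted p = 0.785), and 1.05 without PBS 1. Exons of Plin4 overlap the neighbouring gene Hdgfl2 on the other strand. Cidec, which fuses droplets into large ones, had 3 to 7 reads per library in DOX4X, 1 to 8 in DOX1X and 1 to 11 in PBS, with means of 0.148, 0.135 and 0.153 CPM in that order. A difference between groups was not detectable at this depth.

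In DOX4X against PBS, 0 of the 9 genes tested passed the threshold (an adjusted p below 0.05 in edgeR's quasi-likelihood test). Over all 17838 genes, 0.146% passed it, all of them lower. All 9 log2 fold changes were positive, with a median of 0.47, against 52.2% positive and a median of 0.01 over all genes. At an unadjusted p under 0.05, 4 of the 9 were higher (Pparg, Lpl, Fabp4 and Cd36), against 6% of all genes, and 0 were lower, against 7.85%. In 3 of them (Lpl, Fabp4 and Cd36) the groups did not overlap with DOX4X higher, against 3.17% of all genes, and in 0 with DOX4X lower, against 4.68%. DESeq2 called Pparg, Fabp4 and Cd36 (DESeq2 adjusted p = 0.038, 0.021 and 0.045), where it called 1.33% of the genes it adjusted as higher. Limma-voom called 0 of 9. Without PBS 4, edgeR called 0 of 9, and the log2 fold changes were 1.24 for Fabp4, 1.10 for Cd36, 0.68 for Plin1, 0.39 for Pparg and 0.26 for Plin4. The 9 genes share their libraries and are not independent, so these counts describe the set only.

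In DOX1X against PBS, 0 of 9 passed with edgeR, where 0.00561% of all genes did, and 0 reached an unadjusted p under 0.05, where 3.42% of all genes were higher and 3.74% lower. DESeq2 also called 0, where it called 0.0745% of genes higher. Of the 9 log2 fold changes 5 were positive, with a median of 0.02, against 51.2% positive over all genes. For each of the 9 genes the groups overlapped, where 3.18% of all genes were higher and 3.82% lower without overlap. In DOX4X against DOX1X, 0 of 9 passed with edgeR, where 0.00561% of all genes did, and DESeq2 called 0, where it called 0.119% of genes higher. All 9 log2 fold changes were positive there, with a median of 0.45, against 49.7% positive over all genes. Of the 9, 4 were higher at an unadjusted p under 0.05 (Pparg, Fabp4, Cd36 and Plin1), against 2.23% of all genes, and 0 were lower, against 2.13%. Those 4 did not overlap between groups, against 3.19% of all genes, and 0 lay lower without overlap, against 2.79%. The comparisons share groups and are not separate support for each other.

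**Figure D2:**
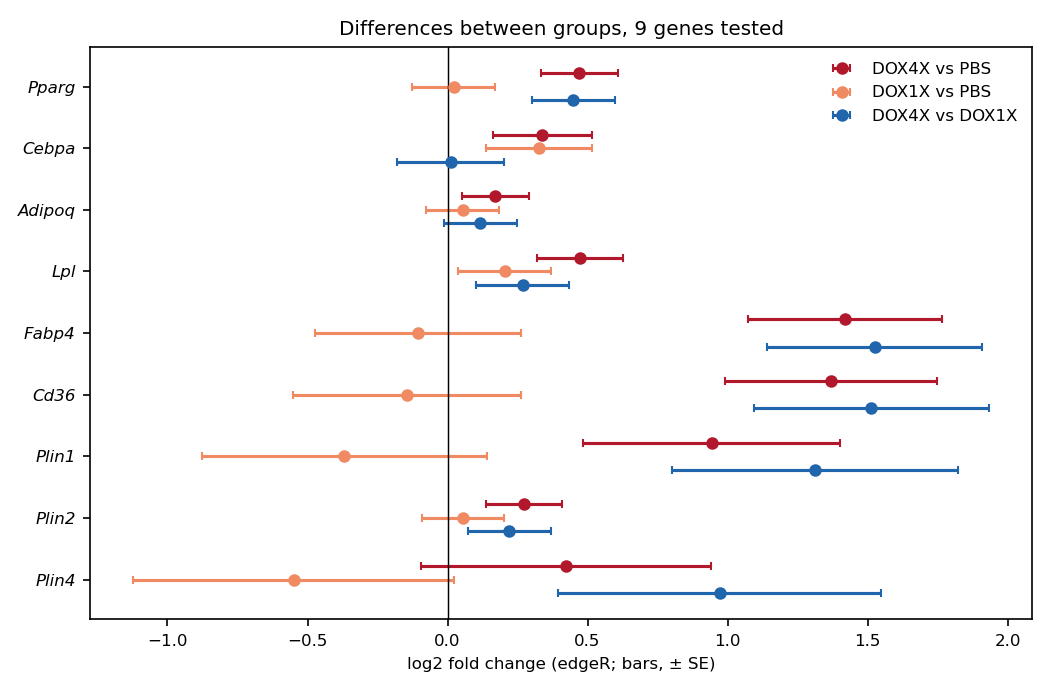
Log2 fold change ± SE (x axis, edgeR) of the 9 genes tested (y axis) in DOX4X against PBS, DOX1X against PBS and DOX4X against DOX1X. Fabp4 and Cd36 lay between 1.37 and 1.53 in both comparisons of DOX4X and at -0.11 and -0.14 in DOX1X against PBS.

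The genes whose levels tracked each member over the 11 libraries divided the set. Among 10706 genes with a mean of at least 5 CPM, those most like Fabp4 were Gpihbp1 (r = 0.98, rho = 0.95), Egfl7 (r = 0.97, rho = 0.94) and Adh6b (r = 0.97, rho = 0.95). Gpihbp1, which holds lipoprotein lipase on capillary walls, and Egfl7 are endothelial genes. Closest to Cd36 were Adgrg3 (r = 0.98), Vta1 (r = 0.97) and Prkch (r = 0.97), and closest to Pparg were Cd36 (r = 0.94), Tnfrsf26 (r = 0.92) and Adgrg3 (r = 0.92). Closest to Adipoq were Prkd1 (r = 0.95), Hsd11b1 (r = 0.90), an enzyme that regenerates active glucocorticoid, and Id1 (r = 0.85). Lpl was closest to Aqp7 (r = 0.93), the glycerol channel of fat cells, Optn (r = 0.91) and Vsir (r = 0.91). Cebpa was closest to Ehd3 (r = 0.98), Fgfrl1 (r = 0.95) and Ddr1 (r = 0.94), and Plin2 to Tlr8 (r = 0.94), Bmp4 (r = 0.93) and Pparg (r = 0.90). Each r is Pearson's over 11 libraries of 3 groups, taken as the highest of many, so it is a description with no p.

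Among themselves, the 9 genes were positively correlated in all 36 pairs, from r = 0.29 to r = 0.94 with a median of 0.71. The pair of highest r was Pparg with Plin1 (r = 0.94, rho = 0.95, permutation p = 4e-05, adjusted over 36 pairs 0.00036). It held at r = 0.88 without the 2 libraries farthest from the Pparg median (PBS 3 and PBS 4), and at r = 0.91 in the 6 libraries of the first flow cell code. Fabp4 with Cd36 had r = 0.94 (rho = 0.94, permutation p = 1e-05, the smallest these permutations can give, adjusted 0.00036), and r = 0.93 without DOX4X 2 and PBS 4. Adipoq had lower r with these genes. With Cd36 it had r = 0.37 (rho = 0.40, permutation p = 0.265) and with Fabp4 r = 0.42 (rho = 0.37, permutation p = 0.193), or 0.09 and 0.11 without PBS 3 and DOX1X 2. Cebpa with Fabp4 had r = 0.29 (rho = 0.05, permutation p = 0.372), while Cebpa with Lpl had r = 0.83 (rho = 0.64, permutation p = 0.00234, adjusted 0.0072), and 0.67 without PBS 3 and PBS 4. Of the 36 pairs 24 passed after adjustment. The permutations moved libraries freely across groups and flow cell codes, so differences between groups enter each r and p. Pairs of other genes were not counted.

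Markers of endothelial cells moved with the same groups. In DOX4X all 22 endothelial markers had positive log2 fold changes against PBS (from 0.40 to 1.25, median 0.89) and against DOX1X (median 1.51), and in DOX1X all 22 were negative against PBS (median -0.58), with 0 of 22 past the edgeR threshold in any of the 3 comparisons. At an unadjusted p under 0.05, 10 of 22 were higher in DOX4X against PBS, where 6% of all genes were. In DOX4X against DOX1X 22 of 22 were, against 2.23% of all genes. The endothelial score (the mean log2(CPM + 2) of the list) was highest in DOX4X 2, at 5.50, and lowest in PBS 4, at 3.09. Fabp4 followed it with r = 0.94 (rho = 0.92, permutation p = 5e-05, adjusted over 18 relations 0.00063). Without PBS 4 and DOX1X 1, the farthest libraries, r was 0.95, and in the 6 libraries of the first flow cell code, which hold no DOX4X, it was 0.94. Cd36 had r = 0.94 with the score (rho = 0.95, permutation p = 7e-05, adjusted 0.00063), 0.94 without those libraries and 0.87 within the first code. For the relations with marker scores, too, permutations crossed groups and codes, so group differences enter each r and p.

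Plin1 and Pparg also followed the endothelial score. Plin1 had r = 0.89 (rho = 0.92, permutation p = 0.00031, adjusted 0.0019), and r = 0.84 without PBS 4 and DOX1X 1. Pparg had r = 0.81 (rho = 0.83, permutation p = 0.00266, adjusted 0.012), 0.80 without those libraries and 0.61 in the 6 libraries of the first code. The others did not pass after adjustment of Pearson's r: Plin4 had r = 0.66 (permutation p = 0.0273, adjusted 0.098), Plin2 r = 0.58 (permutation p = 0.0625), Lpl r = 0.49 (permutation p = 0.132), Cebpa r = 0.30 (permutation p = 0.371) and Adipoq r = 0.18 (permutation p = 0.597). Without PBS 4 and DOX1X 1, r was 0.72 for Plin4, 0.66 for Plin2, 0.64 for Lpl, 0.24 for Cebpa and 0.66 for Adipoq. The low r of Adipoq over all libraries thus depended on those 2. In the 6 libraries of the first code, which include both, r was 0.52, 0.26, 0.16, 0.11 and -0.34 in that order. By Spearman's rho, Plin4 did pass (rho = 0.77, adjusted p = 0.026, permutation). Against the score of 15 monocyte and macrophage markers, r lay between -0.31 (Adipoq) and 0.45 (Lpl), and the smallest permutation p for these 9 relations was 0.37 after adjustment over all 18. Markers of B lineage cells (17 of 17) and erythroid cells (14 of 14) were also positive in DOX4X against PBS, with medians of 1.14 and 0.98, and so were 12 of 15 neutrophil, 8 of 13 macrophage, 8 of 10 mural and 3 of 9 platelet markers tested, with 0 called. In DOX1X against PBS 0 of 10 mural markers were positive (median -0.56), while B lineage (17 of 17) and erythroid (14 of 14) markers were. In DOX4X against DOX1X 9 of 10 mural markers were positive (median 0.84), so the endothelial list was not alone in its pattern. The part of these other cell types in the members' levels was not tested, apart from the covariate fits.

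**Figure D3:**
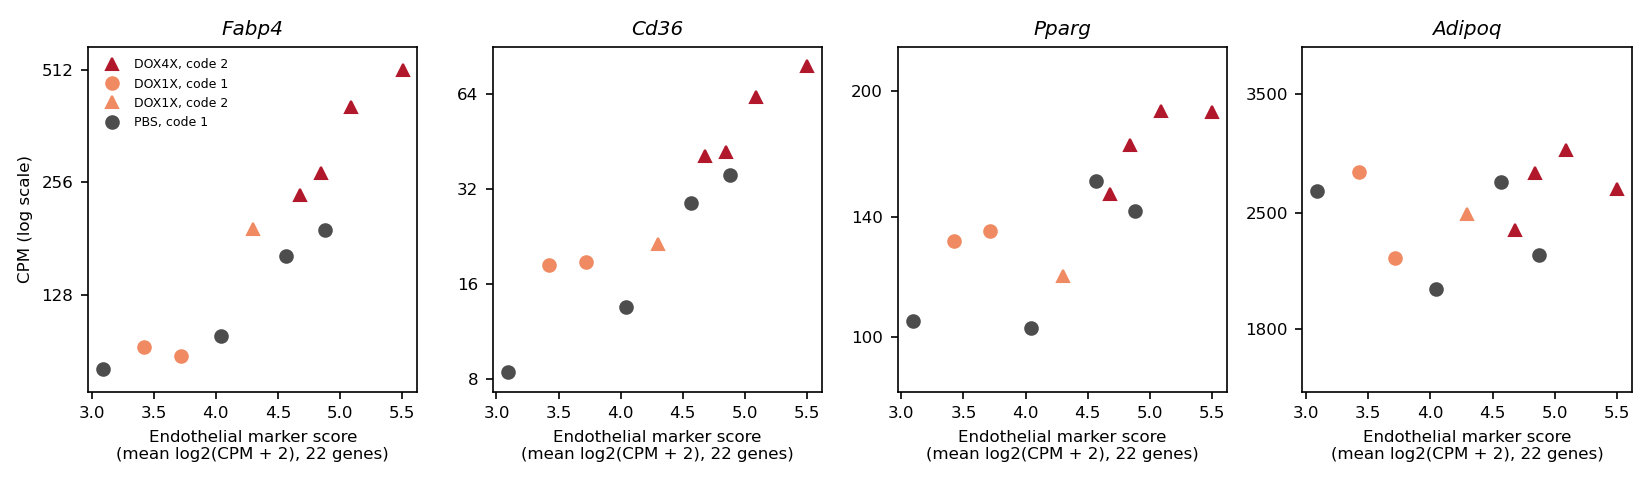
Level of Fabp4, Cd36, Pparg and Adipoq (y axis, CPM on a log scale) against the endothelial marker score (x axis, mean log2(CPM + 2) of 22 genes) in each of the 11 libraries, by group and flow cell code. Fabp4 and Cd36 rise with the score over the 11 libraries (r = 0.94 each). Relative to the endothelial sum, Cd36 was still higher in DOX4X (4.65% to 5.79%) than in PBS (2.83% to 3.92%). Adipoq has r = 0.18 over all libraries, 0.66 without PBS 4 and DOX1X 1, and -0.34 in the 6 libraries of the first code.

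Set against the endothelial sum of the same library, the separation of Fabp4 between DOX4X and PBS rested on whether PBS 4 was counted. Its level was 30.1% to 37.5% of that sum in DOX4X, 23.5% to 34% in DOX1X, and between 20.5% and 37% in PBS. The 37% was PBS 4, and the other 3 PBS libraries reached at most 22%, below every DOX4X library. Cd36 was 4.65% to 5.79% of it in DOX4X, 3.82% to 6.23% in DOX1X and 2.83% to 3.92% in PBS, so DOX4X stayed above PBS and overlapped DOX1X. Plin1 averaged 0.161% ± 0.036 in DOX4X, 0.169% ± 0.033 in DOX1X and 0.138% ± 0.048 in PBS (SD), with overlap throughout. Pparg was lower relative to the sum in DOX4X, at 17.1% ± 2.95, than in DOX1X, at 33.8% ± 11.8, or PBS, at 26.4% ± 14.6, and it overlapped PBS. With the endothelial score as a covariate, the log2 fold change of DOX4X against PBS was 0.65 (SE 0.21) for Fabp4, 0.58 (SE 0.20) for Cd36, 0.25 (SE 0.41) for Plin1 and 0.26 (SE 0.14) for Pparg, and the smallest of the 4 adjusted p-values from edgeR was 0.41. It was 0.42 (SE 0.20) for Lpl, 0.24 (SE 0.22) for Cebpa and 0.22 (SE 0.16) for Adipoq, less than 1.5 times from the values without it. Part of the score's range is the difference between the groups, so the covariate takes up both.

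**Figure D4:**
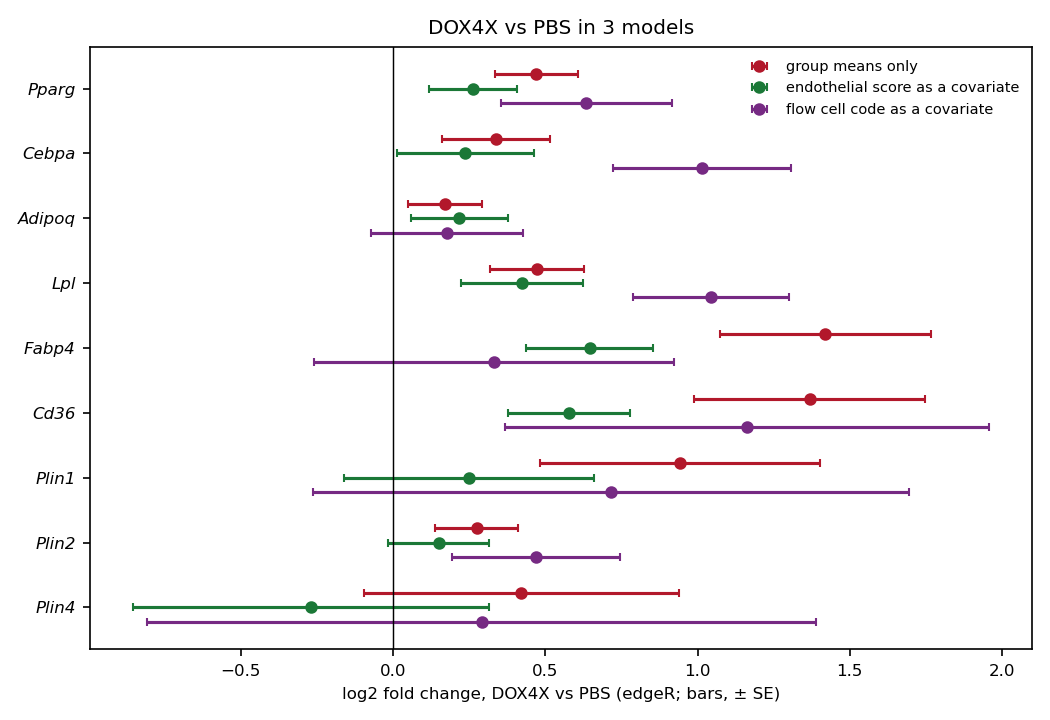
Log2 fold change ± SE (x axis, edgeR) of DOX4X against PBS for the 9 genes tested (y axis) with group means only, with the endothelial score as a covariate and with the flow cell code as a covariate. With the score, Fabp4 and Cd36 moved from 1.42 and 1.37 to 0.65 and 0.58, while Lpl and Adipoq moved little. With the code, Lpl and Cebpa were at 1.05 and 1.01.

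Genes that define a mature fat cell fell into some with very few reads and others well above them. Of 10 such markers 8 were analysed, Plin1 and Cidec among them. Retn, the adipokine resistin, had 0 to 13 reads per library, Cidea, a droplet protein of brown fat, 0 to 16 and Cidec 1 to 11. Cidea was at 0 reads in 3 of 4 DOX4X libraries, 1 of 3 DOX1X libraries and 1 of 4 PBS libraries. Aqp7 (40.1 to 91.7 CPM over all libraries), Slc2a4, the insulin-dependent glucose carrier (7.85 to 24.8 CPM), Adrb3, the fat cell adrenergic receptor (3.88 to 7.64 CPM), and Cfd, adipsin (1.5 to 12 CPM), were higher. The summed level of the 8 markers was 109.5 to 129 CPM in DOX4X, 73.9 to 116 CPM in DOX1X and 58.7 to 108 CPM in PBS, most of it Aqp7. All 5 that were tested, Plin1 included, had positive log2 fold changes in DOX4X against PBS (median 0.52) and against DOX1X (median 0.74). In DOX4X against PBS 2 of the 5 had an unadjusted p under 0.05, where 6% of all genes were higher at that p. In DOX1X against PBS 1 of the 5 markers was positive (median -0.37), and 0 of the 5 were called in any comparison. Their part in the other members' levels was not tested. Cfd had 6.69, 12, 11.8 and 6.43 CPM in DOX4X, 3.94, 2 and 2.68 CPM in DOX1X, and 5.89, 8.14, 2.43 and 1.5 CPM in PBS. Its log2 fold change was 1.04 (SE 0.46, edgeR adjusted p = 0.35) against PBS and 1.68 (SE 0.52, edgeR adjusted p = 0.886) against DOX1X.

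Around the members, 65 of 74 genes of 8 lists of the same pathways were tested, and 0 passed the edgeR threshold in any of the 3 comparisons. At an unadjusted p under 0.05, 12 of the 65 were higher in DOX4X against PBS and 3 lower, against 6% and 7.85% of all genes. The median log2 fold change of the 65 was 0.03 there. Transcription factors around Pparg had 0 of 14 past the threshold and a median of -0.08. Zfp423, a preadipocyte factor, had -0.30 (SE 0.10, edgeR adjusted p = 0.246), and Klf15, a factor induced in fat cells, 0.36 (SE 0.16, edgeR adjusted p = 0.358). Inhibitors of adipogenesis had 0 of 8 past it and a median of 0.11, with Gata2 at 0.83 (SE 0.32). Nr2f2, a nuclear receptor of this list, had 0.42 (SE 0.19). Gata2 is also a gene of blood progenitors, and erythroid markers summed to between 364 and 884 CPM in DOX4X and between 169 and 444 CPM in PBS; their part in its value was not tested.

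For the handling of fatty acids, 0 of 11 passed and the median of DOX4X against PBS was -0.14. Fabp5, a carrier related to Fabp4, had 17.5, 15, 13.2 and 11.9 CPM in DOX4X, 10.6, 11 and 6.86 CPM in DOX1X, and 8.24, 11.8, 5.89 and 8.27 CPM in PBS. Every DOX4X library lay above the other 7, and its log2 fold change against PBS was 0.75 (SE 0.22, edgeR adjusted p = 0.186). Vldlr, the receptor of triglyceride-rich lipoproteins, had -0.86 (SE 0.35) in DOX4X and -0.84 (SE 0.39) in DOX1X against PBS, with edgeR adjusted p of 0.316 and 0.69. Angptl4, an inhibitor of lipoprotein lipase, had 0.52 (SE 0.23) in DOX4X and 0.55 (SE 0.24) in DOX1X against PBS, with edgeR adjusted p of 0.342 and 0.675. Secreted adipocyte proteins had 0 of 6 past the threshold and a median of -0.01, with Rbp4, the retinol carrier, at -0.20 (SE 0.23). Among other droplet genes 0 of 5 passed and the median was -0.01, with Plin3, a perilipin of all tissues, at -0.17 (SE 0.09).

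In triglyceride synthesis 0 of 7 passed and the median of DOX4X against PBS was 0.23. Dgat2, which adds the last acyl chain, had 0.36 (SE 0.16, edgeR adjusted p = 0.338), and Lpin2, a phosphatidate phosphatase, 0.26 (SE 0.12) in DOX4X and 0.35 (SE 0.13) in DOX1X against PBS. In lipolysis 0 of 8 passed and the median was 0.23. G0s2, an inhibitor of the first lipase of lipolysis, had 0.34 (SE 0.13). Pnpla2, which encodes that lipase, had -0.49 (SE 0.25, edgeR adjusted p = 0.723) in DOX1X against PBS and 0.63 (SE 0.25, edgeR adjusted p = 1) in DOX4X against DOX1X. In insulin and glycerol handling 0 of 6 passed and the median was 0.23, with Aqp7 at 0.52 (SE 0.18, edgeR adjusted p = 0.246) and Irs2, an insulin receptor substrate, at 0.30 (SE 0.13).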

How the data were processed

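RNA was measured in 11 libraries of sorted marrow stromal cells. The authors deposited whole-number read counts per gene symbol, not normalized, in 1 table. The submitters' processing notes name GRCm39, the aligner STAR (2.7.9a) and the counter featureCounts (2.0.1), with Trim Galore (0.6.6) for trimming. Whether strand or multi-mapped reads were counted is not stated there. Per the labels, libraries came from poly(A) RNA with a SMART-Seq kit, which does not mark strand.

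Counts were filtered with filterByExpr, scaled with TMM and fitted in edgeR 4.0.16 (R 4.3.3) over all 11 libraries with group means only. Quasi-likelihood p-values (two-sided) were adjusted by Benjamini-Hochberg across the 17838 genes, and 0.05 was the threshold. Each standard error was derived from the F statistic. The procedure was tested on simulated data. Correlations used log2(CPM + 0.5) for genes, with 100000 permutations of all 11 libraries across groups and flow cell codes. Levels per kilobase used exons of coding transcripts in GENCODE M21, a GRCm38 annotation. The labels call the replicates biological without saying whether each is 1 mouse, and p-values measure the spread between these libraries. The replicate numbers were not taken as pairs, since same-numbered libraries did not deviate together throughout. Libraries of different numbers were not compared in this way, so whether the numbers pair the samples is not settled.

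The members and lists were chosen with earlier results of these data known. The rule for named genes takes all 10 members, up to 2 genes of smallest p with a mean of at least 5 CPM per list and comparison, and the 3 genes most like each member with such a mean. One gene that the rule names is not reported here. Cfd, Retn, Cidea, Slc2a4 and Adrb3 are named as markers of mature fat cells. Alternatives were 2 other scalings, 2 other filters, DESeq2 1.42.0, limma-voom (limma 3.58.1), a robust prior, the compared groups alone, a replicate block, flow cell code and 2 marker scores as covariates, a threshold of 0.10, and each library left out.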

Additional observations from a re-analysis of the deposited data

How the results depend on the processing

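Of 615 values of 27 results under the alternatives, 587 kept their direction and side of the threshold, 3 passed it where they had not, and 25 changed sign. The number of the 9 genes called in DOX4X against PBS was 0 with edgeR and 3 with DESeq2. With the endothelial score as a covariate, the log2 fold change of Plin4 was -0.27 in DOX4X against PBS and -0.12 in DOX4X against DOX1X, that of Cebpa was -0.15 in DOX4X against DOX1X, and those of Fabp4, Cd36 and Plin1 in DOX1X against PBS were 0.19, 0.44 and 0.22. With blood cell markers as a covariate Fabp4 had 0.11 in DOX1X against PBS, and with limma-voom Cebpa had -0.068 in DOX4X against DOX1X; the cause was not tested.

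Leaving out each library in turn gave ranges for DOX1X against PBS of -0.066 to 0.13 for Pparg, -0.039 to 0.13 for Adipoq, -0.57 to 0.12 for Fabp4, -0.41 to 0.20 for Cd36, -0.64 to 0.0069 for Plin1, -0.069 to 0.15 for Plin2 and -0.86 to 0.074 for Plin4. For Cebpa in DOX4X against DOX1X the range was -0.18 to 0.12.

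Same-numbered libraries deviated together with r between -0.14 and 0.43, so the numbers were not taken as pairs. With the replicate block, 0 members were called in DOX4X against PBS, the log2 fold changes were 0.49 for Pparg, 1.40 for Fabp4 and 1.49 for Cd36, and Pparg in DOX1X against PBS had -0.013. Genes called in DOX4X against PBS over the whole table numbered 26, 10 with the replicate block, 6 with the flow cell code, 0 with either marker covariate, 1 with only the compared groups, 64 at a threshold of 0.10, 56 with limma-voom, 599 with DESeq2 and 0 to 80 with a library left out (80 without PBS 4, 47 without DOX1X 3, at most 7 without any other). In DOX1X against PBS they numbered 1, 6 with the block and 41 with DESeq2, and in DOX4X against DOX1X 1, 2 with the block, 0 with the endothelial score and 28 with DESeq2. Plin1 and Plin4 were not tested under the strict filter, and depth limits Plin1, Plin4 and Cidec most.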
